A study of Mus musculus with 8 samples.

Results

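The TGF-beta, BMP and myostatin signalling families were followed through a 24 h fast in tibialis anterior muscle, which lifts the foot and in mice consists mostly of fast fibres. Members were chosen by gene symbol, by a rule set with earlier results of these data known: every gene whose platform symbol is that of a BMP, GDF, TGF-beta, inhibin or activin ligand or its receptor, a Smad, a latent TGF-beta binding protein, a follistatin, an Id protein or myostatin (Mstn), plus 4 genes that carry such a name without such a role. The rule found 60 members among 14860 genes, each with 1 transcript cluster, the unit for which the array gives a value. Male mice aged 8 weeks were either fed ad libitum or fasted for 24 h. RNA of 3 mice was pooled for each array, and 4 experiments with 1 fed and 1 fasted pool each gave 4 fed and 4 fasted arrays. The sources used here give no strain, genotype or hour of collection, and a pool hides the spread between single mice.

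Ligands of these families are secreted dimers that bring together type I and type II receptor kinases. TGF-beta, activin and myostatin receptors phosphorylate Smad2 and Smad3, whereas BMP receptors phosphorylate Smad1, Smad5 and Smad9; both classes then join Smad4 in the nucleus. In skeletal muscle the myostatin and activin branch restrains fibre growth and the BMP branch favours it, and both compete for Smad4. Follistatin traps myostatin and activins outside the cell, and Smad6 and Smad7 restrain receptor signalling inside it. Arrays measure mRNA, so neither ligand processing nor Smad phosphorylation is seen here.

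None of the 60 members passed an adjusted p of 0.05 for fasted against fed muscle by limma's paired test adjusted over all 16755 clusters, of which 0.818% passed, so a count of 0 among 60 is near that background. At an unadjusted p under 0.05, 9 members were counted, 3 with higher and 6 with lower values in fasted muscle, against 10.9% of all clusters. These were Smad3, Acvr1, Bmpr1a, Fstl1, Tgfb2 and Acvr2a with lower values and Tgfbr3, Acvr1b and Smad5 with higher ones. Their log2 differences lay between -0.55 and 0.42, and the smallest adjusted p, that of Smad3, was 0.0715. The median log2 difference of the 60 was -0.013, beside -0.016 over all clusters, and 32 members had values below 0, against 54.4% of all clusters.

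The 95% interval of the difference included a 2-fold change, a log2 difference of 1, in 0 of the 60 members, against 2.48% of all clusters. It stayed within 0.5 of 0 in 46 of them. The interval that reached lowest was that of Bmpr1a, to -0.87, and the one that reached highest was that of Inhbc, to 0.73. These intervals are unadjusted, and they describe the deposited values, in which differences at low signal are compressed. Of the members, 21 had a mean level below the median of all clusters and 39 above it. The precision is limited by the 8 arrays, and the median standard error of the members was 0.12 on the log2 scale.

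**Figure D1:**
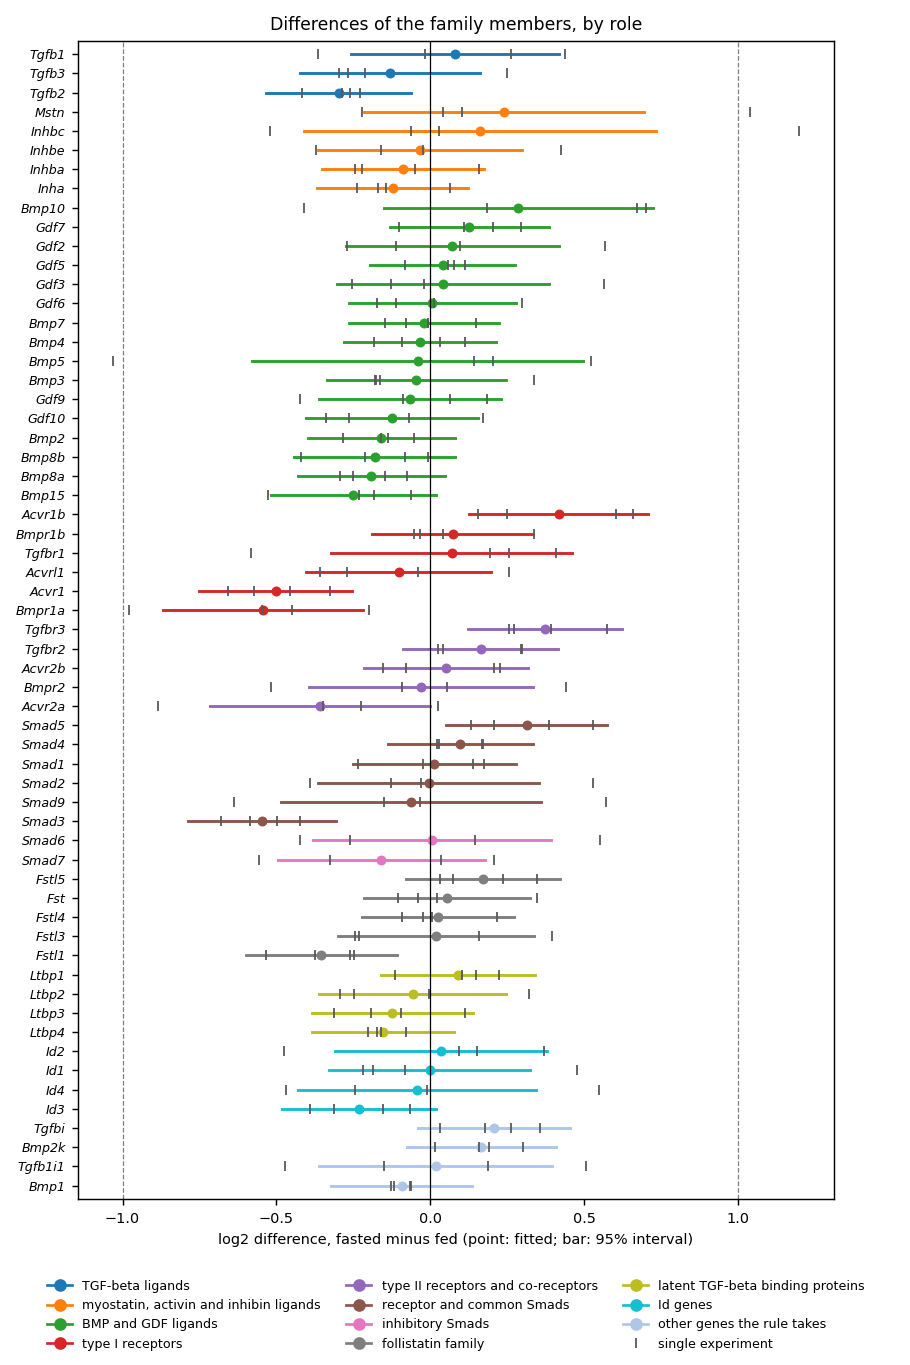
Log2 difference, fasted minus fed, of each of the 60 members, ordered by role. Points are fitted differences, bars their 95% intervals, vertical ticks the 4 experiments and dashed lines a 2-fold difference; no bar reaches a dashed line, and the points run from -0.55 (Smad3) to 0.42 (Acvr1b).

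Fed and fasted levels did not overlap in 4 of the 60 members. Smad3, Acvr1 and Bmpr1a lay lower in all fasted pools than in any fed pool, as did 3.22% of all clusters, and Tgfbr3 lay higher, as did 3.55%. All 4 experiments had the same sign in 20 members, 8 higher and 12 lower, against 18.7% of all clusters. The other 40 members had at least 1 experiment with the opposite sign. In bulk muscle, fewer cells of a type and less RNA per cell cannot be told apart.

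Promoter sequence is shown for 5 members: Smad3 as the member with the smallest p, Acvr1b and Mstn as a receptor and a ligand of the myostatin branch, and Id2 and Id3 as genes known to be switched on by BMP Smads. Each window holds 250 bases before and 50 after the annotated gene start, 5′ to 3′ on the gene's strand, from RefSeq on GRCm38.p6. They lie at chr9:63757945-63758244 on the minus strand for Smad3, chr15:101173822-101174121 on the plus strand for Acvr1b, chr1:53061390-53061689 on the plus strand for Mstn, chr12:25096043-25096342 on the minus strand for Id2 and chr4:136143572-136143871 on the plus strand for Id3. Capitals mark CAGAC, the Smad box, and GGCGCC, a GC-rich element of BMP Smads, on either strand.
Smad3: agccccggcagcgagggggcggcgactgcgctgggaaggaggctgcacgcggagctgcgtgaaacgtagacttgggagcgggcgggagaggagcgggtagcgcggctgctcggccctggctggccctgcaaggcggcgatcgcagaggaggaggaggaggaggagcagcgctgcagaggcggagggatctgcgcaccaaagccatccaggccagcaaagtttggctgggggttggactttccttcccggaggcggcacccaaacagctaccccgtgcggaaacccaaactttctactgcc
Acvr1b: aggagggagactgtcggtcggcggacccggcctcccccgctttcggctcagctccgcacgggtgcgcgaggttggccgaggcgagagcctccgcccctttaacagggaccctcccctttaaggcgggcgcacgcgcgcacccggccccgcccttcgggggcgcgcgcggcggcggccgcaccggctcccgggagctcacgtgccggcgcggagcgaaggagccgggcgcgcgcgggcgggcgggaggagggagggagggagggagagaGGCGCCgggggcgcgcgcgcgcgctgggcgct
Mstn: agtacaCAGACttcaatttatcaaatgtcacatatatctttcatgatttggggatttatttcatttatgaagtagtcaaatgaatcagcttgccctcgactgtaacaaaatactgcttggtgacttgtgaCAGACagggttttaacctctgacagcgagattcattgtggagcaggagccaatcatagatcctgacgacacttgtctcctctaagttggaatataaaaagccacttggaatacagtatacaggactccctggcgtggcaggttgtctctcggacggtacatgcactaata
Id2: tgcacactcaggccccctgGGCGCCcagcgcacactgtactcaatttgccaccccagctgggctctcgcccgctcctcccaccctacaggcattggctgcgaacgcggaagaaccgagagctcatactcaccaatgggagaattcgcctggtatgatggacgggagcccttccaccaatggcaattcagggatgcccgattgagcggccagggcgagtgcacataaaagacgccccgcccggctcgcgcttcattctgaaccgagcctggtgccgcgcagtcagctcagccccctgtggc
Id3: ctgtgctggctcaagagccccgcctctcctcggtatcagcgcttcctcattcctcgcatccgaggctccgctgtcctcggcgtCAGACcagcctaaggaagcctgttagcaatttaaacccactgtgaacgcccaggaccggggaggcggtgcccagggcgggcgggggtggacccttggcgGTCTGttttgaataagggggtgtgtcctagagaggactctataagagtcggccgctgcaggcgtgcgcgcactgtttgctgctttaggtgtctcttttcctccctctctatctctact

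The Mstn window held CAGAC 2 times and the E-box CANNTG, a site of myogenic factors, 4 times. Id3 held the Smad box 2 times, once on each strand, and Id2 and Acvr1b held GGCGCC 1 time each. The Smad3 window held none of these 3 motifs, nor TGTTTAC, a motif of FoxO factors; all 4 were searched on both strands. Matches of different motifs were counted separately. Over all 32851 windows of the table, CAGAC was found in 49.6%, GGCGCC in 11.9%, CANNTG in 72.3% and TGTTTAC in 3.65%. Of the 60 members 43 had a window. The first listed window of each held CAGAC in 21, GGCGCC in 11, CANNTG in 24 and TGTTTAC in 0. Further windows, which 6 members had, were not part of this member count. Of the 5 windows, GC content was lowest for Mstn, at 41.3%, and highest for Acvr1b, at 79.7%. A match is a description of the letters and not a binding site.

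Among the TGF-beta ligands, the values of Tgfb2 were lower in each fasted pool than in the fed pool of its experiment. Tgfb2 had log2 levels of 6.20, 6.10, 6.01 and 6.40 in the fed pools of experiments 1 to 4 and of 5.79, 5.87, 5.75 and 6.11 in the fasted ones. Only fasted pool 4 reached into the fed range, and the log2 difference was -0.30 ± 0.10 (SE, adjusted p = 0.311 by limma). Tgfb1, the best known of the 3 isoforms, read 5.89, 5.62, 5.42 and 5.13 in fed and 5.52, 5.61, 5.68 and 5.56 in fasted pools. Its fed levels spread more widely than its fasted ones, with SDs of 0.32 and 0.07 (n = 4), and the difference was 0.08 with a 95% interval from -0.26 to 0.42. Tgfb3 was at -0.13 ± 0.13.

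Mstn (transcript cluster 6749461), which encodes myostatin, the muscle-made ligand that limits muscle mass, depended on experiment 1. Its log2 levels were 8.35, 8.77, 8.72 and 8.71 in fed and 9.39, 8.55, 8.76 and 8.81 in fasted pools. Experiment 1 held both the lowest fed and the highest fasted level, a difference of 1.04, whereas experiments 2, 3 and 4 gave -0.22, 0.04 and 0.10. The fitted difference was 0.24 with an interval from -0.22 to 0.70 (adjusted p = 0.785), and without experiment 1 it was -0.026 (adjusted p = 0.973). For Inhba, which encodes the activin A subunit, the levels were 6.11, 6.22, 6.0 and 6.09 in fed and 6.06, 5.98, 6.16 and 5.87 in fasted pools. The groups overlapped, and the log2 difference was -0.09 ± 0.11. Inha, the alpha subunit that turns activin subunits into inhibin, was at -0.12 ± 0.11. Inhbc and Inhbe, activin subunits known mainly from liver, were at 0.16 ± 0.25 and -0.03 ± 0.14. The error of Inhbc was large because experiment 3 gave 1.2 and experiment 4 gave -0.52. Gdf11, the closest relative of myostatin, was not analysed here.

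None of the 16 BMP and GDF ligands reached an unadjusted p of 0.05, and their median log2 difference was -0.04, with 10 below 0 and 6 above. Bmp4, a BMP made by many tissues, had log2 levels of 5.79, 5.87, 6.07 and 6.05 in fed and 5.90, 5.69, 5.98 and 6.08 in fasted pools. Its difference was -0.03 with an interval from -0.28 to 0.21. The smallest p of the group belonged to Bmp15, an oocyte factor, at a low level of 4.75, 4.48, 4.69 and 4.40 in fed and 4.22, 4.30, 4.46 and 4.34 in fasted pools. That difference, -0.25 ± 0.12 (adjusted p = 0.50), had the same sign in 4 of 4 experiments, but the fasted pool of experiment 3 lay inside the fed range. Bmp2, Bmp8a and Bmp8b were also below 0 in every experiment, at -0.16, -0.19 and -0.18. Bmp5 gave the most divided values, with 0.52 in experiment 1 and -1.03 in experiment 3. Gdf5, a ligand known to be induced in denervated mouse muscle, was at 0.04 ± 0.10, with an interval from -0.19 to 0.28. Differences of the remaining 9 ligands lay between -0.12 (Gdf10) and 0.29 (Bmp10). Bmp6 and Gdf15 were not analysed here.

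The type I receptors held the most divided values of any role. Acvr1 and Bmpr1a, which phosphorylate BMP Smads, gave the lowest, and the activin and myostatin receptor Acvr1b the highest. Acvr1 (cluster 6886957), also called ALK2, had log2 levels of 6.56, 6.70, 6.58 and 6.94 in fed and 6.23, 6.24, 6.01 and 6.28 in fasted pools. Every fasted pool was below every fed pool, from a mean of 6.69 ± 0.17 to 6.19 ± 0.12 (SD, n = 4), a difference of -0.50 ± 0.11 (SE, adjusted p = 0.106). It passed in 1 of 11 alternative settings, with array weights, and its adjusted p ranged from 0.0392 to 0.465 over them. Bmpr1a (cluster 6823889), or ALK3, read 7.48, 7.71, 7.89 and 7.93 in fed and 7.29, 7.26, 6.91 and 7.38 in fasted pools. The groups did not overlap, and the difference of -0.54 ± 0.14 (adjusted p = 0.178) ranged over the experiments from -0.20 in experiment 1 to -0.98 in experiment 3.

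Acvr1b (cluster 6833306), or ALK4, went the other way, with levels of 6.35, 6.13, 6.30 and 6.70 in fed and 7.01, 6.73, 6.55 and 6.85 in fasted pools. The value was higher after fasting within each experiment, although fed pool 4 lay above fasted pool 3, and the log2 difference was 0.42 ± 0.13 (adjusted p = 0.244). Tgfbr1, the type I receptor of TGF-beta, read 6.21, 5.93, 6.47 and 6.31 in fed and 6.47, 6.34, 5.89 and 6.5 in fasted pools. Its groups overlapped because experiment 3 gave -0.58 and the other experiments positive values, and the interval ran from -0.32 to 0.46. Bmpr1b and the endothelial receptor Acvrl1 were at 0.07 ± 0.11 and -0.10 ± 0.13. This contrast between receptors was singled out after the values were seen, and it was not tested.

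**Figure D2:**
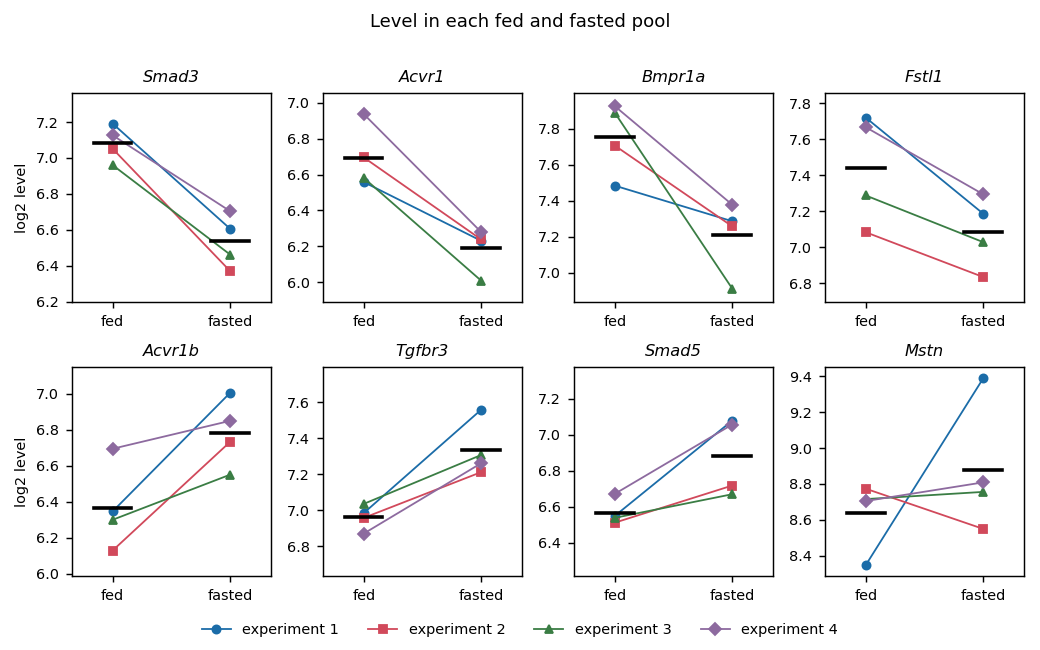
Log2 level of 8 members in the fed and fasted pool of each experiment, joined by a line, with group means as black bars; each panel has its own axis position and the same span. Smad3, Acvr1, Bmpr1a and Fstl1 slope down in 4 of 4 experiments, Acvr1b, Tgfbr3 and Smad5 slope up in 4 of 4, and Mstn is carried by experiment 1.

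Of the type II receptors and co-receptors, Tgfbr3 was the one whose groups did not overlap. This gene encodes betaglycan, a co-receptor that presents TGF-beta and also binds inhibin. Its log2 levels were 6.98, 6.96, 7.04 and 6.87 in fed and 7.56, 7.21, 7.31 and 7.26 in fasted pools, a difference of 0.37 ± 0.11 (adjusted p = 0.224). Acvr2a and Acvr2b encode the receptors that bind myostatin and activins. Acvr2a read 7.16, 7.50, 7.62 and 7.30 in fed and 7.19, 7.15, 6.73 and 7.07 in fasted pools, with experiment 1 at 0.02 and experiment 3 at -0.89. The fitted difference was -0.36 ± 0.15 (adjusted p = 0.452), and it was -0.18 without experiment 3 and -0.49 without experiment 1. Acvr2b had 5.33, 5.57, 5.46 and 5.61 in fed and 5.25, 5.42, 5.67 and 5.84 in fasted pools. Its groups overlapped widely, at a difference of 0.05 with an interval from -0.22 to 0.32. Tgfbr2 read 6.18, 5.77, 5.78 and 6.14 in fed and 6.21, 6.07, 6.07 and 6.18 in fasted pools, which put the difference at 0.16 ± 0.11, above 0 in 4 of 4 experiments. The BMP type II receptor Bmpr2 had 8.03, 8.36, 8.38 and 8.56 in fed and 8.47, 8.27, 7.87 and 8.61 in fasted pools. Here experiments 1 and 3 gave 0.44 and -0.52, and the fitted difference was -0.03 ± 0.16.

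Smad3 (transcript cluster 6996254), the transducer of myostatin, activin and TGF-beta signals, came nearest to the threshold of all members. Its log2 levels were 7.19, 7.05, 6.96 and 7.13 in fed and 6.61, 6.37, 6.46 and 6.70 in fasted pools. All fasted pools lay below all fed pools, with means of 7.08 ± 0.10 and 6.54 ± 0.15 (SD, n = 4). The fed level was 1.46 times the fasted one, a log2 difference of -0.55 ± 0.10 (SE) with an interval from -0.79 to -0.31 (adjusted p = 0.0715 by limma). Single experiments gave -0.58, -0.68, -0.50 and -0.42, so the value does not rest on 1 of them. Smad3 passed in 5 of 11 alternative settings, namely with array weights (adjusted p = 0.0397), without the experiment block (0.0422), with a random block (0.0318), with a trended robust prior (0.0348) and after the dimmest clusters were left out (0.0324). It did not pass in the other 6. These were the fits without any 1 experiment (adjusted p from 0.107 to 0.328), quantile normalization and median centring. The range over all 11 was 0.0318 to 0.328.

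Its partner Smad2 had levels of 6.49, 6.89, 6.93 and 6.82 in fed and 7.02, 6.76, 6.54 and 6.79 in fasted pools. The means were both 6.78, and experiments 1 and 3 gave opposite values of 0.53 and -0.39, with a fitted interval from -0.36 to 0.35. Smad4, the common partner of both classes, read 7.19, 7.07, 7.09 and 7.31 in fed and 7.36, 7.24, 7.12 and 7.33 in fasted pools, a difference of 0.10 ± 0.10. The BMP Smad gene Smad5 had 6.55, 6.51, 6.54 and 6.67 in fed and 7.08, 6.72, 6.67 and 7.06 in fasted pools. Its value was higher after fasting in 4 of 4 experiments, with fasted pool 3 level with the highest fed pool, and the difference was 0.31 ± 0.11 (adjusted p = 0.342). Smad1 read 6.19, 6.38, 6.28 and 6.32 in fed and 6.37, 6.15, 6.26 and 6.46 in fasted pools, and its difference was 0.01 ± 0.11. Smad9 was at -0.06 ± 0.18. Of the inhibitory Smads, Smad7 had 6.0, 5.96, 5.73 and 5.81 in fed and 5.44, 5.63, 5.94 and 5.84 in fasted pools. That is below 0 in experiments 1 and 2 and above 0 in experiments 3 and 4, for a difference of -0.16 ± 0.15. Smad6 was at 0.0043 ± 0.17, with the same split between the experiments.

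The extracellular inhibitors gave no called difference either. Fst, which encodes follistatin, had log2 levels of 6.48, 5.79, 6.03 and 5.97 in fed and 6.37, 6.14, 6.05 and 5.93 in fasted pools. Groups overlapped, and the difference was 0.06 with an interval from -0.21 to 0.32. Fstl1, a secreted follistatin-like glycoprotein made largely by connective tissue cells, read 7.72, 7.08, 7.29 and 7.67 in fed and 7.19, 6.83, 7.03 and 7.29 in fasted pools. It was lower after fasting within each experiment, at -0.35 ± 0.11 (adjusted p = 0.246), although the levels of different experiments overlapped. Fstl3, a second inhibitor of activin and myostatin, was at 0.02 ± 0.14, and Fstl4 and Fstl5 at 0.03 ± 0.11 and 0.17 ± 0.11. The latent TGF-beta binding proteins, which hold TGF-beta in the matrix, lay between -0.15 ± 0.10 (Ltbp4) and 0.09 ± 0.11 (Ltbp1), and Ltbp4, a known modifier of muscular dystrophy in mice, was below 0 in 4 of 4 experiments.

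Markers of other cells are given beside these values, since fibroblasts and tendon cells also express Fstl1, Tgfb2 and the Ltbp genes. Of 8 fibroblast markers none passed, 6 had values below 0, and the median log2 difference was -0.31. Col1a2, Col1a1, Cd34 and Col3a1 lay between -0.45 and -0.30. Of the 8 markers, 5 were below 0 in all 4 experiments and 1 was above 0 in all 4. The 8 were not uniform, with Lum at -0.95 ± 0.19, Dpt at -0.03 ± 0.13, Pi16 at 0.04 ± 0.12 and Pdgfra at 0.29 ± 0.11. Summed over the list on the linear scale, their level ran from 1436 to 2275 in fed and from 1404 to 1700 in fasted pools. Of 4 tendon markers none passed and all 4 had values below 0, with sums of 657 to 1027 in fed and 566 to 866 in fasted pools. Tnmd and Scx were at -0.73 ± 0.13 and -0.70 ± 0.15. Comp and Thbs4 were at -0.07 ± 0.11 and -0.06 ± 0.13, each above 0 in 2 experiments and below 0 in 2. The part of these cells in the values of Fstl1 and Tgfb2 was not tested. In the muscle fibre list, 7 measured genes lay between -0.14 and 0.01, and Ckm, Acta1 and Tnnt3 had mean log2 levels of 10.87, 12.06 and 12.41 in fed pools. No marker of the endothelial, macrophage, adipocyte, Schwann, satellite, mural or erythroid lists passed.

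Id genes encode inhibitors of basic helix-loop-helix factors and are direct targets of BMP Smads. Id1 had log2 levels of 5.51, 5.54, 5.37 and 5.37 in fed and 5.42, 5.35, 5.16 and 5.85 in fasted pools. It was below 0 in experiments 1 to 3 and at 0.48 in experiment 4, and the fitted difference was -0.0023 with an interval from -0.33 to 0.32. Id2 read 5.75, 5.15, 5.35 and 5.48 in fed and 5.90, 5.24, 5.72 and 5.01 in fasted pools, a difference of 0.04 ± 0.15 with experiment 4 at -0.47. Id3 had 5.95, 5.91, 5.90 and 6.28 in fed and 5.89, 5.52, 5.75 and 5.96 in fasted pools. All 4 experiments were below 0, and the difference was -0.23 ± 0.11 (adjusted p = 0.508). Id4 was at -0.04 ± 0.17. Tgfbi, a matrix protein named for its induction by TGF-beta, read 6.92, 6.55, 6.94 and 7.01 in fed and 7.18, 6.91, 7.12 and 7.04 in fasted pools, at 0.21 ± 0.11 (adjusted p = 0.565). The procollagen proteinase gene Bmp1, the kinase gene Bmp2k and the adaptor gene Tgfb1i1 were at -0.09 ± 0.10, 0.17 ± 0.10 and 0.02 ± 0.16.

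Experiments 1 and 3 had opposite signs in 34 of the 60 members, as they had in 60.4% of all clusters, and the correlation of their differences was -0.12 across the members and -0.09 across all clusters. Experiments 1 and 2 had opposite signs in 14 members and 36.8% of all clusters, with a correlation of 0.47 across the members and 0.35 across all clusters. Genes within an array are not independent, so these correlations are descriptions. The median difference of the members was -0.08 in experiment 1 and 0.08 in experiment 3, close to the medians over all clusters of -0.10 and 0.08. Fasted array 3 had the highest median of the 8 arrays, 5.91, and the smallest SD over clusters, 1.25, and fasted array 1 the lowest median, 5.76. The part of these array differences in the members' values was not tested.

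**Figure D3:**
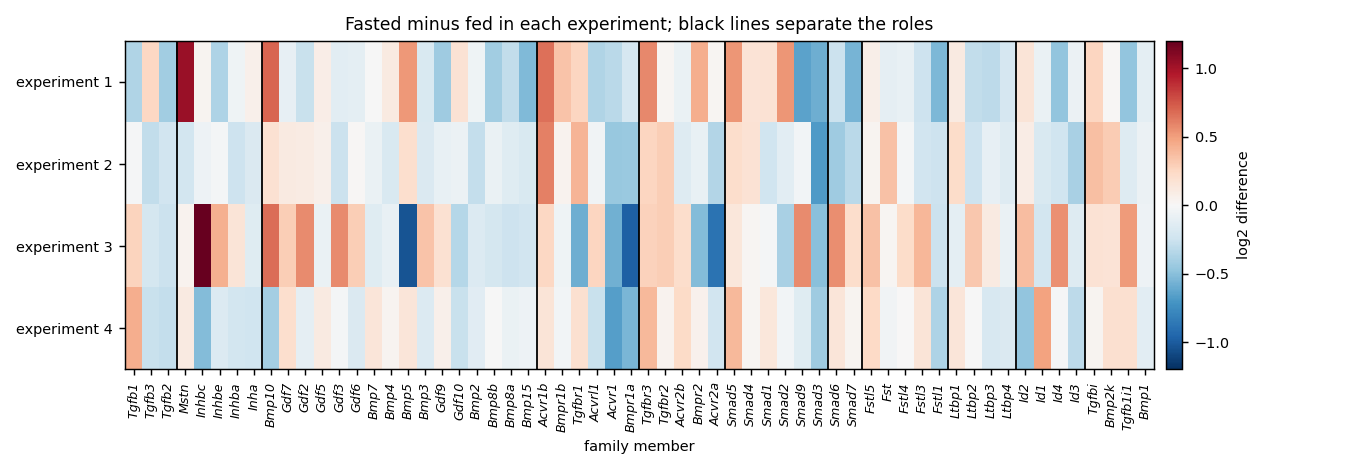
Log2 difference, fasted minus fed, of each of the 60 members (columns, in order of role) in each experiment (rows); red is higher and blue lower in the fasted pool. Members such as Bmp5, Smad2, Smad6 and Bmpr2 take opposite colours in experiments 1 and 3, while Smad3 and Acvr1 are blue and Acvr1b and Tgfbr3 red in every row.

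Other genes of the pathway were read from a list of antagonists, co-receptors, activators, intracellular modulators and textbook targets, which was written with earlier results of these data known. Of 56 measured genes, 2 rose and 1 fell in fasted muscle, against the 0.818% of all clusters. The one that fell, Itgb6 (cluster 6887088), encodes the beta subunit of an integrin that releases TGF-beta from its latent complex, known best from epithelia. Its log2 levels were 7.03, 7.22, 7.46 and 7.48 in fed and 5.77, 6.0, 5.68 and 5.95 in fasted pools. Fed and fasted levels were more than 1 log2 unit apart, and the difference was -1.45 ± 0.13, a 2.73-fold lower level (adjusted p = 0.00513). The alpha subunit of the same integrin, Itgav, was at -0.13 ± 0.12.

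Both genes that rose were among the 13 measured target genes, of which 5 had values above 0 and 8 below, with a median log2 difference of -0.11. The collagen gene Col1a1 and the TGF-beta target Pmepa1 were at -0.39 ± 0.13 and -0.27 ± 0.11 and did not pass. Fbxo30 encodes a ubiquitin ligase that BMP signalling is known to repress in mouse muscle. It read 7.82, 7.77, 7.67 and 8.12 in fed and 9.09, 8.65, 8.54 and 8.70 in fasted pools, with no overlap, and rose by 0.90 ± 0.13, or 1.87-fold (adjusted p = 0.0330). Its call ended when any 1 experiment was left out (adjusted p from 0.0608 to 0.128) and after median centring (0.0760). Cdkn1a, the cell cycle inhibitor p21, is a textbook target of TGF-beta and of several other pathways, and rose by 1.76 ± 0.11, or 3.40-fold (adjusted p = 0.00084), from 6.45, 6.37, 6.29 and 6.97 in fed to 8.06, 8.27, 8.10 and 8.70 in fasted pools. Both genes lay higher in every fasted pool than in any fed pool.

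Next in the list were 3 genes that did not pass. Tgif1, a repressor that binds TGF-beta Smads, read 5.82, 5.96, 5.70 and 6.15 in fed and 6.61, 6.60, 6.5 and 6.43 in fasted pools. Groups did not overlap, the difference was 0.63 ± 0.12 (adjusted p = 0.0807), and Tgif1 passed in 4 of 11 alternative settings. Thbs1, or thrombospondin 1, which can activate latent TGF-beta, had 6.65, 5.87, 6.12 and 6.06 in fed and 6.89, 6.28, 6.59 and 6.68 in fasted pools, at 0.44 ± 0.11 (adjusted p = 0.170). Hjv, the BMP co-receptor hemojuvelin of muscle and liver, read 8.62, 8.56, 8.69 and 9.14 in fed and 8.34, 8.40, 8.13 and 8.72 in fasted pools, at -0.36 ± 0.11 (adjusted p = 0.274). Within each experiment Thbs1 was higher and Hjv lower after fasting, while the levels of both overlapped between the groups. The 14 measured antagonists, among them Nog, Chrd and Grem1, held no gene at an unadjusted p under 0.05.

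**Figure D4:**
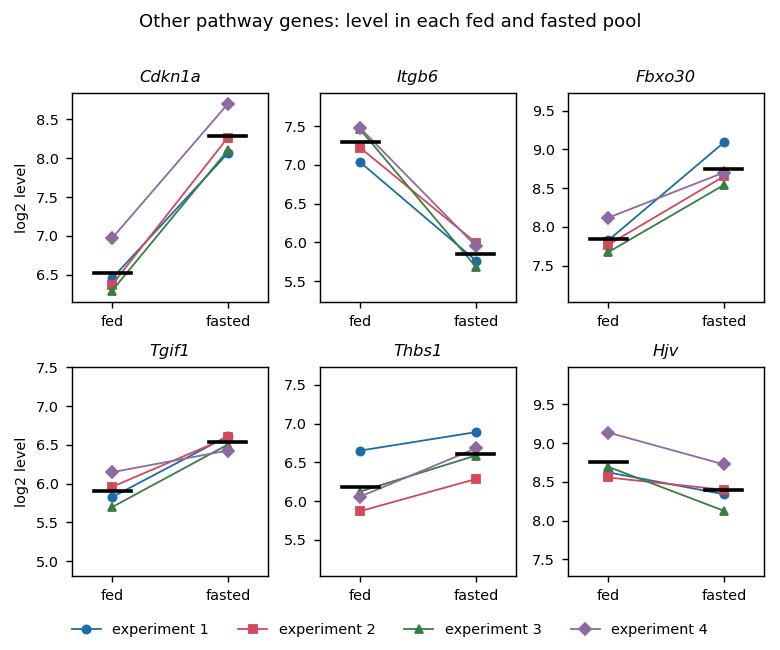
Log2 level of 6 other pathway genes in the fed and fasted pool of each experiment, joined by a line, with group means as black bars; all panels have the same span. Cdkn1a and Fbxo30 (up) and Itgb6 (down) passed the test; Tgif1, Thbs1 and Hjv did not.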

How the data were processed

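Gene expression was measured on 8 exon arrays of pooled tibialis anterior RNA, amplified by NuGEN SPIA and labelled with biotin per the labels' protocols. The authors deposited log2 values made with RMA, per the submitters' processing notes; the sources used here give no version, and no role for the human build that the notes name. Values ran from 1.08 to 13.3, from which the base was inferred. RMA compresses differences at low signal, and no detection calls were used, so a low level may be background.

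The table held 16755 clusters with array medians from 5.76 to 5.91. All 60 members had 1 cluster and matched a RefSeq gene by Entrez number with the same symbol. The test was limma's (version 3.58.1, R 4.3.3; eBayes without trend), with experiment as a block and Benjamini-Hochberg adjustment over all clusters, and standard errors had 3 residual and 4.84 prior degrees of freedom. The fit was tested on simulated data. Experiment pairs the arrays, because the series description gives each experiment both pools. Deviations of paired arrays from their group means correlated at -0.18, 0.05, -0.14 and 0.44. By this measure the fed array was closest to its own fasted array in experiment 4 only, so the pairing rests on the description. In this fit p-values measure the spread of the fasted minus fed difference between the 4 experiments, with each variance drawn towards a value shared by all clusters. They do not measure the spread between single mice.

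Members and lists were chosen with earlier results of these data known. Values per array are given for the 12 members of smallest p, 21 fixed members, which overlap, and the 6 pathway genes of smallest p. Alternatives were the fit without the block, a random block, leaving out each experiment, quantile normalization, median centring, leaving out the lowest 25% by mean level, a trended robust prior and array weights.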

Additional observations from a re-analysis of the deposited data

Results flagged for a closer look

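Of 132 groups of 4 arrays examined (60 members and 6 pathway genes, fed and fasted), 3 held an array far from the rest by Dixon's ratio of the gap to the range; about 1 in 20 is reached by chance. Mstn in fed pools had experiment 1 at a log2 level of 8.35 and the others from 8.71 to 8.77, a ratio of 0.838. Id3 in fed pools had experiment 4 at 6.28 and the others from 5.90 to 5.95, a ratio of 0.869. Fstl4 in fed pools had experiment 4 at 5.61 and the others from 5.67 to 5.68, a ratio of 0.830 over a range of under 0.1.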

How the results depend on the processing

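The count of members past the threshold was 0 in 6 of 11 alternative settings. It was 1 without the replicate block, with the block as random, with a trended robust prior and with the dimmest clusters left out, Smad3 each time. It was 2 with array weights, Smad3 and Acvr1. Over all clusters the count was 137 in the main fit. It was 229 with the random block, 240 with the dimmest clusters left out and 216 with the trended robust prior. With array weights it was 265, and after median centring 45. Leaving out experiment 1, 2, 3 or 4 gave 16, 37, 94 and 31, each time with 1 fed and 1 fasted array fewer. The causes were not tested. Without the block the count was 185, so the pairing moved it by less than 1.5 times. Pathway genes past the threshold numbered 2 to 4. The median difference of the members lay between -0.10 and 0.0063 when 1 experiment was left out.

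Of the 60 members, 33 kept their sign in all settings run. Signs turned after median centring for Smad2 (0.011) and Id1 (0.014), and with array weights for Inhbc (-0.11), Gdf3 (-0.035), Id2 (-0.12), Bmp7 (0.025), Bmp5 (0.072), Gdf6 (-0.053), Smad6 (-0.030) and Id1 (0.12). Leaving out 1 experiment turned at least 1 sign for 27 members, with log2 differences over the 4 refits of Mstn -0.026 to 0.39, Bmpr1b -0.014 to 0.12, Gdf9 -0.15 to 0.052, Ltbp2 -0.18 to 0.023, Smad9 -0.27 to 0.13, Id4 -0.24 to 0.098, Id2 -0.077 to 0.20, Inhbe -0.19 to 0.080, Smad1 -0.040 to 0.096, Id1 -0.16 to 0.070, Fst -0.042 to 0.11, Tgfbr1 -0.044 to 0.29, Bmp4 -0.082 to 0.017, Smad2 -0.18 to 0.12, Inhbc -0.19 to 0.39, Gdf2 -0.095 to 0.19, Acvr2b -0.0072 to 0.12, Gdf3 -0.13 to 0.14, Fstl4 -0.037 to 0.066, Bmp7 -0.077 to 0.021, Bmpr2 -0.19 to 0.13, Bmp5 -0.23 to 0.29, Fstl3 -0.11 to 0.11, Tgfb1i1 -0.14 to 0.18, Gdf6 -0.091 to 0.067, Smad6 -0.18 to 0.15, Tgfb1 -0.039 to 0.23. None of these 27 passed in any setting, and the cause was not tested. Members have 1 cluster each, so no second cluster could be tried.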
